A study of Mus musculus with 6 samples.

Results

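The TGF-beta and BMP branch of signalling was followed through 10 genes in the mouse colorectal tumor line CT26. These were 4 ligand genes (Tgfb1, Tgfb2, Bmp4 and Inhba), the inhibitory SMADs Smad6 and Smad7, and 4 genes known to respond to the ligands (Id1, Id2, Id3 and Tgfbi). They were taken by symbol from tables of 24346 genes, and all 10 had a row. Parental CT26.mMR1 cells, which carry a retrovirally transduced mouse MR1 gene, were compared with M8, a mutant of these cells that also carries it. The sample titles of both lines carry the label cl9. Its meaning, and whether the parental line is itself 1 clone, are not given in the sources used here. M8 was made with the mutagen ENU, is 1 clone, and was picked for stronger activation of a MAIT cell reporter line and for raised MR1 expression, so a difference between the lines cannot be told apart from clonal variation. Each line gave 3 RNA libraries, which the study's supplement describes as biological replicates. All M8 replicates come from the same clone.

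Ligands of the TGF-beta and activin group bind pairs of type I and type II receptor kinases that phosphorylate SMAD2 and SMAD3, whereas BMP ligands signal mainly to SMAD1, SMAD5 and SMAD9. Both groups of SMADs join SMAD4 and enter the nucleus. The Id genes are direct targets of the BMP branch in many cell types. Id proteins lack a DNA-binding domain and hold E proteins such as those encoded by Tcf3, Tcf4 and Tcf12 away from DNA. SMAD6 and SMAD7 are induced by the pathway and inhibit it. In the colon, BMP signalling is known for restraining stem cells of the crypt, and TGF-beta for restraining epithelial growth.

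Expression was given as FPKM, a fragment density corrected for transcript length and for sequencing depth, so that levels of different genes can be set side by side. The test was limma on log2(FPKM + 1), run on the 10597 genes whose mean FPKM reached 1, and a gene was called at an adjusted p (Benjamini-Hochberg over all genes tested) below 0.1. A log2 difference on this scale understates the change of low genes. Estimated depth was 23.8 to 26.9 M reads in parental libraries and 19.4 to 22.0 M reads in M8, so that every M8 library was less deep than every parental one. Of 10 colon epithelium markers, Epcam, Cdh1, Krt19 and Cdx2 were listed at 0 in all 6 libraries and 3 passed the filter, so these defining epithelial markers were not found in cells labelled colon. The summed FPKM of that list, carried mainly by Krt18, was 41.9 to 57.7 in parental cells and 48.2 to 50.2 in M8, but 2 of the 3 tested fell, Krt20 from 17.4 ± 2.36 to 11.9 ± 0.979 FPKM (SD, n = 3 each, limma adjusted p = 0.0044) and Lgals4 from 1.68 ± 0.438 to 0.68 ± 0.106 (limma adjusted p = 0.0073). The 8 fibroblast markers summed to 199 to 222.4 in parental cells and 217.1 to 230.8 in M8, carried mainly by Col1a1 and Col3a1. Thy1 and Postn of this list were also listed at 0 in all 6 libraries. Of the 5 that passed the filter, Pdgfra and Dcn fell (log2 differences -0.43 and -0.38, limma adjusted p = 0.0090 and 0.024) and Pdgfrb rose (0.25, limma adjusted p = 0.0079). None of 5 endothelial and 7 leukocyte markers passed it, and each of these lists summed to less than 1 in every library. The part of these markers in the results below was not tested.

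Of the 10 genes, 7 passed the filter, and Tgfb2, Bmp4 and Tgfbi did not. Id2 and Tgfb1 fell in M8 and none of the 7 was called higher. In these cultures, fewer cells with a transcript and less of it per cell cannot be told apart. At an unadjusted p below 0.05, limma gave 3 of the 7, of which 1, Smad6, was higher. That looser cutoff takes in every gene called, so at least 37.7% of all genes tested pass it too. Over all genes tested, 37.7% were called, 21.2% as higher and 16.5% as lower, so 2 of 7 called is no more than the share among all genes. The replicates of the lines did not overlap for 2 of the 7, against 45.2% of all genes tested. The median log2 difference of the 7 was 0.08, beside 0.01 over all genes tested. The balance of directions over all genes moved with the scaling. It was 2250 higher and 1745 lower as deposited, 1658 and 2209 after conversion to TPM, and 1157 and 3236 after upper-quartile scaling.

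Id2 had the largest difference of the 7. It lies at chr12:25093799-25097140 on the minus strand of mm10 (GENCODE vM21), a protein-coding gene that no other annotated gene overlaps. Its FPKM was 10.9, 12.0 and 9.90 in the parental replicates and 6.28, 7.79 and 6.98 in M8. Every M8 replicate was lower than every parental replicate. The mean fell from 10.9 ± 1.04 to 7.02 ± 0.757 (SD, n = 3 each) and so fell by 35.8% (log2 difference -0.57, SE 0.09, limma adjusted p = 0.0019). The exact two-sided permutation test gave p = 0.1, the smallest that 3 samples against 3 allow. Among all genes tested, Id2 ranked 144 by the size of its difference and 84 among those that were lower in M8. It stayed below the threshold under 16 of 16 alternatives run on single genes, with a highest adjusted p of 0.0146. Its log2 difference was just short of a 1.5-fold change on the log2(FPKM + 1) scale, where the added 1 shrinks it. The ratio of mean FPKM was 0.642, and the log2 difference was -0.61 with a pseudocount of 0.5 and -0.63 with 0.1, both beyond 1.5-fold. About 488 reads per parental library and 258 per M8 library lay behind these values, estimated from the longest annotated transcript. These read numbers are not corrected for the lower depth of the M8 libraries.

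The other Id genes differed less. Id1, the most abundant of the 10, is at chr2:152736251-152737410 on the plus strand. Its FPKM was 29.7, 34.1 and 32.3 in parental cells and 33.8, 32.6 and 29.7 in M8. The ranges overlapped almost fully, and the means were 32.0 ± 2.25 and 32.0 ± 2.13 (SD, n = 3 each, log2 difference 0.00, SE 0.06, limma adjusted p = 0.99). The sign of this difference changed when single replicates were left out, from -0.05 to 0.05. Id3 is at chr4:136143497-136145755 on the plus strand. It had an FPKM of 15.7, 12.9 and 14.4 in parental cells and 14.2, 17.1 and 17.8 in M8. The highest M8 replicates were above all parental ones, but M8 replicate 1 was within the parental range. The means were 14.3 ± 1.41 and 16.3 ± 1.89 (SD, n = 3 each, log2 difference 0.18, SE 0.09, limma adjusted p = 0.17). Id3 passed the threshold without M8 replicate 1 or without parental replicate 1, with a lowest adjusted p of 0.0624 when 1 replicate was left out. The fourth gene of the family, Id4, was listed at 0 in all 6 libraries.

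**Figure D1:**
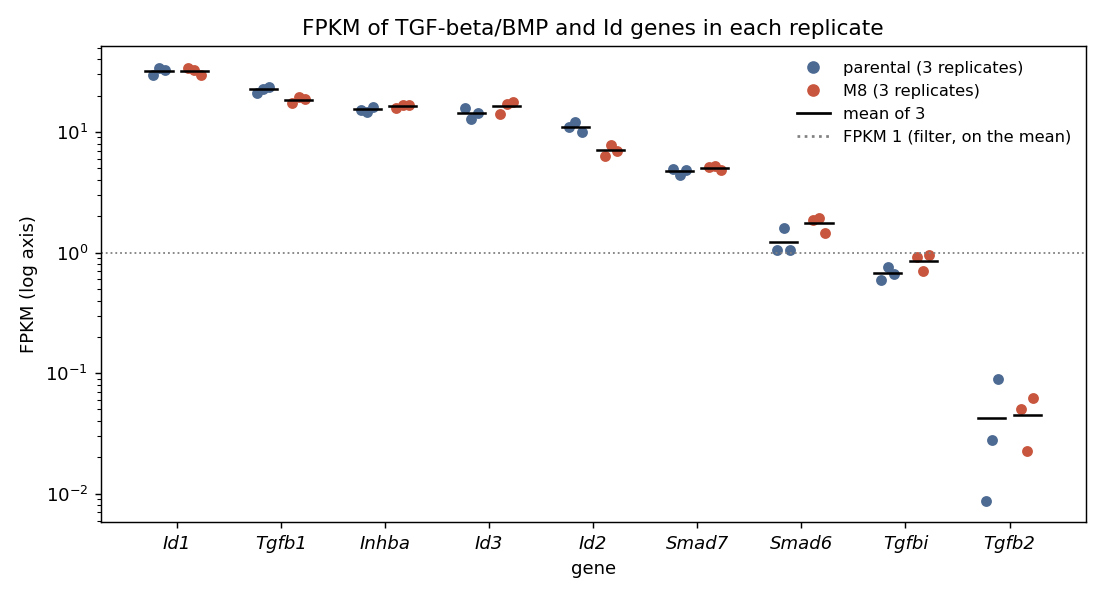
FPKM on a log axis for 9 of the 10 genes, ordered by mean level, with 3 parental replicates (blue) and 3 M8 replicates (red) and black lines at the means. Bmp4 is not drawn because it was listed at 0 throughout. Id2 and Tgfb1 are the genes whose replicates did not overlap between the lines.

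The difference in Id2 also appeared within libraries, where scaling between libraries cancels. The summed FPKM of Id1, Id2 and Id3 was 56.3, 59.0 and 56.6 in parental cells and 54.3, 57.5 and 54.4 in M8, and these ranges overlapped. Id2 supplied 19.4%, 20.3% and 17.5% of that sum in parental cells but 11.6%, 13.6% and 12.8% in M8. No M8 replicate reached the lowest parental share. The FPKM ratio of Id2 to Id1 was 0.368, 0.351 and 0.306 in parental cells and 0.186, 0.239 and 0.235 in M8. The ratio of Id2 to Id3 was 0.695, 0.930 and 0.687 in parental cells and 0.442, 0.457 and 0.393 in M8. Neither ratio overlapped between the lines, whereas the ratio of Id3 to Id1 did (0.377 to 0.529 in parental cells and 0.420 to 0.599 in M8). These ratios are given as values and were not tested. Of the E-protein genes that Id proteins act on, Tcf3 had an FPKM of 41.3 ± 1.35 in parental cells and 43.7 ± 1.28 in M8 (SD, n = 3 each). Its log2 difference was 0.08 (limma adjusted p = 0.21) and turned negative under upper-quartile scaling. Tcf4 and Tcf12 had log2 differences of 0.07 and 0.01, with limma adjusted p of 0.38 and 0.82, and these too turned negative under that scaling.

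**Figure D2:**
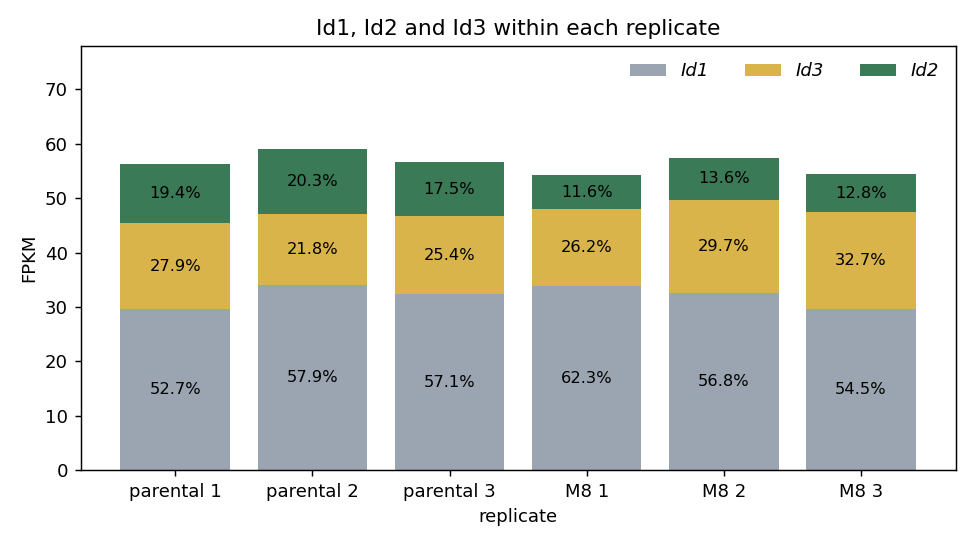
Stacked FPKM of Id1, Id3 and Id2 in each of the 6 libraries, with each gene's percentage of the sum printed in its segment. The Id2 segment is 17.5% to 20.3% of the sum in parental cells and 11.6% to 13.6% in M8, while the height of the whole bar overlaps between the lines.

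Tgfb1 encodes the most widely expressed TGF-beta ligand and lies at chr7:25687002-25705077 on the plus strand, with no overlapping gene. Its FPKM was 20.9, 22.9 and 23.7 in parental cells and 17.3, 19.5 and 18.6 in M8. All M8 replicates were lower than all parental replicates. The mean fell from 22.5 ± 1.45 to 18.5 ± 1.08 (SD, n = 3 each) and so fell by 17.9% (log2 difference -0.27, SE 0.06, limma adjusted p = 0.011, exact permutation p = 0.1). Its adjusted p stayed below the threshold in 16 of 16 alternatives, at most 0.0533, and its log2 difference ranged from -0.35 to -0.23. About 1352 reads per parental library and 912 per M8 library were estimated behind it, not corrected for the lower depth of M8. Tgfb2, which encodes a second TGF-beta ligand at chr1:186622792-186705989 on the minus strand, was near the limit of detection. Its FPKM was 0.00878, 0.0278 and 0.0901 in parental cells and 0.0502, 0.0228 and 0.0623 in M8, about 1.1 to 11.9 reads per library. The ranges overlapped and no difference was detectable at this depth. Gm26169 and Gm29491 overlap Tgfb2 on the other strand. Tgfb3, the remaining TGF-beta ligand gene, was named after its values were seen, since it makes up most of the rest of the TGF-beta transcripts. It had 7.22 ± 0.561 FPKM in parental cells and 7.33 ± 0.717 in M8 (SD, n = 3 each, log2 difference 0.02, limma adjusted p = 0.89). The summed FPKM of the 3 TGF-beta ligand genes was 28.2, 30.7 and 30.4 in parental cells and 23.9, 26.9 and 26.7 in M8. The share of Tgfb1 in it was 74.1% to 77.9% in parental cells and 69.8% to 72.4% in M8, without overlap.

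Inhba encodes the subunit of activin A, which signals through the same SMADs as TGF-beta. The gene is at chr13:16011851-16031621 on the plus strand, where the pseudogene B230303A05Rik and the antisense gene Gm48444 overlap it on the other strand. The library kit marks strand, but whether the counting used strand is not given in the sources used here, so reads of such partners cannot be told apart from those of Inhba, or likewise of Tgfb2 and Bmp4. Its FPKM was 15.3, 14.7 and 16.2 in parental cells and 15.9, 16.6 and 16.8 in M8. The lowest M8 replicate was within the parental range. The means were 15.4 ± 0.748 and 16.4 ± 0.502 (SD, n = 3 each, log2 difference 0.09, SE 0.05, limma adjusted p = 0.24). The ratio of Tgfb1 to Inhba was 1.37, 1.55 and 1.46 in parental cells and 1.09, 1.17 and 1.11 in M8, so every M8 library held less Tgfb1 relative to Inhba than any parental library. Bmp4, a BMP ligand gene at chr14:46383520-46390669 on the minus strand that Gm15217 and Gm15222 overlap on the other strand, was listed at 0 in all 6 libraries. Of 15 BMP ligand genes, 6 were listed at 0 throughout and 2 passed the filter. Bmp6 had 1.005 ± 0.183 FPKM in parental cells and 1.005 ± 0.128 in M8 (SD, n = 3 each, log2 difference 0.00, limma adjusted p = 0.99). Bmp2 fell from 1.30 ± 0.369 to 0.729 ± 0.230 FPKM (SD, n = 3 each, log2 difference -0.41, limma adjusted p = 0.078), although its replicates overlapped. The Bmp2 call was lost when M8 replicate 1 or 3, or parental replicate 2 or 3, was left out (limma adjusted p 0.118 to 0.226), and under quantile normalization (0.224) or with no filter (0.129).

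Smad6, whose product inhibits mainly the BMP branch, was nearest to the threshold among the genes not called. It lies at chr9:63953076-64022059 on the minus strand. Its FPKM was 1.05, 1.59 and 1.06 in parental cells and 1.85, 1.93 and 1.44 in M8. Parental replicate 2 was above M8 replicate 3, and otherwise the M8 libraries were higher. The means were 1.23 ± 0.309 and 1.74 ± 0.263 (SD, n = 3 each), a level 41.6% higher in M8 (log2 difference 0.30, SE 0.13, limma adjusted p = 0.11, exact permutation p = 0.2). Before adjustment its limma p was 0.041. Only 73.0 to 113 reads per library were estimated behind it. Over 15 alternatives its adjusted p ranged from 0.0497 to 0.255 and was below the threshold in 5, including the fits without parental replicate 2 or without M8 replicate 3. Smad7, whose product inhibits both branches, is at chr18:75367529-75395935 on the plus strand. Its FPKM was 4.91, 4.42 and 4.80 in parental cells and 5.14, 5.20 and 4.81 in M8. The lowest M8 value was below the highest parental one. The means were 4.71 ± 0.253 and 5.05 ± 0.208 (SD, n = 3 each, log2 difference 0.08, SE 0.07, limma adjusted p = 0.39).

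Tgfbi, an extracellular matrix gene named for its induction by TGF-beta, is at chr13:56609523-56639562 on the plus strand and was below the filter. Its FPKM was 0.593, 0.761 and 0.658 in parental cells and 0.917, 0.707 and 0.949 in M8. M8 replicates 1 and 3 were above all parental ones, and replicate 2 was within their range. Without the filter its log2 difference was 0.15 (SE 0.07, limma adjusted p = 0.21). By level per length, the order in parental cells was Id1, Tgfb1, Inhba, Id3, Id2, Smad7, Smad6, Tgfbi and Tgfb2. The replicates of Inhba and Id3 overlapped there and those of all other neighbours did not. In M8 the order of means was the same, but Id3, which reached 17.8 FPKM, overlapped both Inhba and Tgfb1, which went down to 17.3.

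**Figure D3:**
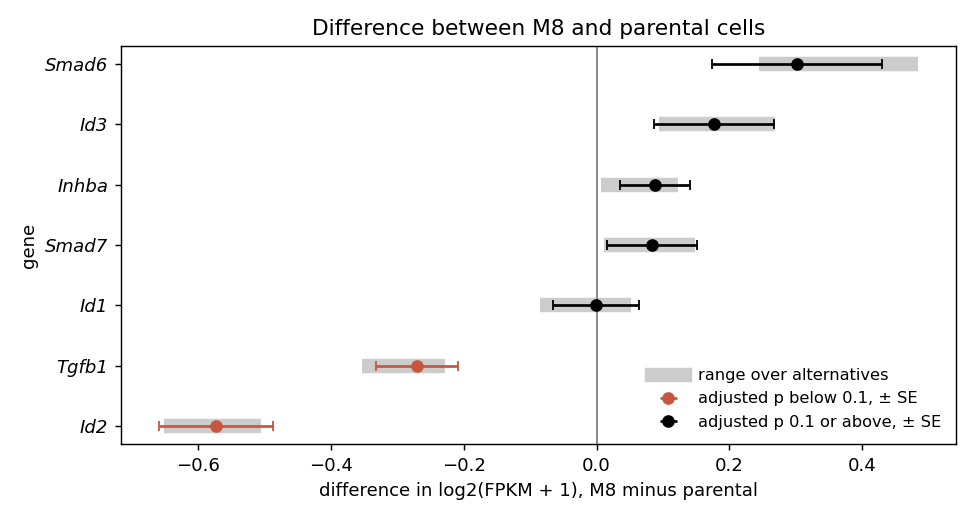
Difference in log2(FPKM + 1), M8 minus parental, of the 7 genes tested, with bars of 1 SE and grey bands for the range over the alternatives. Id2 (-0.57) and Tgfb1 (-0.27) are the 2 below the adjusted p of 0.1, and the band of Id1 spans 0.

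Sequence before the start of the genes that fell, Id2 and Tgfb1, is shown. RefSeq promoter windows (GRCm38.p6) matched 8 of the 10 genes, all but Id1 and Smad7, and the 250 bases before the RefSeq start were read 5′ to 3′ on the gene's strand. GENCODE vM21 starts some transcripts further out. The Tgfb1 window (chr7:25686752-25687001, plus strand) lies outside every GENCODE transcript of the gene and ends at its start. The Id2 window (chr12:25096093-25096342, minus strand) lies inside the longest Id2 transcript, with 161 bases in an exon of it, and the other 89, at chr12:25096254-25096342, are in its first intron. The Id3 window (chr4:136143572-136143821, plus strand) lies wholly within an exon of Id3. Exon bases are not printed. Capitals mark CAGAC on either strand (GTCTG on the other), a core of TGF-beta SMAD binding elements, and GGCGCC, which reads the same on both strands and is known from BMP-responsive promoters. The 2 motifs can share 1 base.
Id2: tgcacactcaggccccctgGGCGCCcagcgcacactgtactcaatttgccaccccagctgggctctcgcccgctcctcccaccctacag
Tgfb1: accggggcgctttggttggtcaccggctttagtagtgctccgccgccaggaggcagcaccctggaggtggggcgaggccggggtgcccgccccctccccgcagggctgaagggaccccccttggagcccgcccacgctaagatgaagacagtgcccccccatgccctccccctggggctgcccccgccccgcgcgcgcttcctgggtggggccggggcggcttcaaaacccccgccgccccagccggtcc
The whole Id2 window held 1 GGCGCC, in the stretch shown, and no CAGAC. The Id3 window held 2 CAGAC and no GGCGCC, and the Tgfb1 window held neither. Of the other windows, which belong to genes that were not called or not tested, Tgfbi held 2 CAGAC and 1 GGCGCC, Tgfb2 held 2 CAGAC, and Smad6, Inhba and Bmp4 held neither. Among 27025 windows of this length, 42.1% held CAGAC and 9.54% held GGCGCC. GC content was 62.8% in the Id2 window, 62.8% in Id3 and 75.2% in Tgfb1, with a median of 52.0% over all windows. A match of these letters is a description and was not tested for binding.

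The rest of the pathway was read from 10 lists by role, with 123 genes besides the 10. Of these, 75 were tested, 10 rose (13.3%) and 21 fell (28%), beside the 21.2% and 16.5% of all genes, and their median log2 difference was -0.04. Under TPM 8 rose and 25 fell, and under upper-quartile scaling 6 rose and 34 fell, where the counts over all genes also lean lower. Their median was -0.08 under TPM and -0.13 under upper-quartile scaling, beside -0.03 and -0.07 over all genes. The lists were chosen with earlier results of these data known. The counts of each list below are to be read beside the 21.2% higher and 16.5% lower of all genes. Of 12 TGF-beta and activin ligand genes, 6 were tested, 3 fell and none was called higher. Besides Tgfb1 these were Lefty1, which encodes an antagonist of Nodal and fell from 3.26 ± 0.239 to 1.95 ± 0.0705 FPKM (SD, n = 3 each, limma adjusted p = 0.0023), and Gdf11. Gdf11, a ligand related to myostatin, fell from 2.09 ± 0.33 to 1.34 ± 0.208 FPKM (SD, n = 3 each, limma adjusted p = 0.029). The number of these genes that fell was 3 under TPM, quantile and upper-quartile scaling alike.

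Of 16 receptor and co-receptor genes, 13 were tested, 6 fell and none was called higher, beside 16.5% lower and 21.2% higher over all genes tested. The replicates of the lines did not overlap for 5 of the 13, against 45.2% of all genes. The median log2 difference was -0.14, beside 0.01 over all genes tested, and was -0.22 under upper-quartile scaling and -0.05 with no filter. Tgfbr3, the TGF-beta co-receptor betaglycan, fell from 17.1 ± 0.119 to 13.0 ± 1.01 FPKM (SD, n = 3 each, limma adjusted p = 0.0025). The BMP co-receptor gene Rgmb had a log2 difference of -0.28 and the BMP type II receptor gene Bmpr2 one of -0.23 (limma adjusted p = 0.011 and 0.026). The type II TGF-beta receptor gene Tgfbr2, the most abundant of the list with Acvr1, had 21.8 ± 0.620 FPKM in parental cells and 19.7 ± 0.786 in M8 (SD, n = 3 each, log2 difference -0.14, limma adjusted p = 0.065). The Tgfbr2 call was lost without M8 replicate 1 or 2 or parental replicate 2 (limma adjusted p 0.17 to 0.193). The number of receptor genes that fell was 5 to 7 under the TPM, quantile and upper-quartile scalings. It dropped to 3 without M8 replicate 2 or without parental replicate 2, and to 4 without M8 replicate 1 or parental replicate 3.

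Of 16 genes in the list of intracellular inhibitors, 14 were tested, 5 rose and 2 fell, beside 21.2% and 16.5% of all genes. Without M8 replicate 1 or M8 replicate 2 these counts were 3 and 1, and the other fits without 1 replicate gave 4 to 5 higher and 1 to 2 lower. Smurf1, a ubiquitin ligase that targets SMADs and receptors, rose from 37.2 ± 0.790 to 45.9 ± 0.915 FPKM (SD, n = 3 each, log2 difference 0.30, limma adjusted p = 0.0013). Tob1, an antiproliferative gene whose product represses BMP SMADs, had a log2 difference of -0.34 (limma adjusted p = 0.0018). Under upper-quartile scaling, 1 gene of this list rose and 3 fell, and under TPM 3 rose and 2 fell. The list also holds Rnf111 and Usp15, whose products do not act only as inhibitors. Neither was called (log2 differences -0.13 and 0.05, limma adjusted p = 0.24 and 0.53). Of the 6 SMAD genes that carry the signal, 5 were tested and Smad3 fell, from 23.3 ± 0.918 to 20.2 ± 0.426 FPKM (SD, n = 3 each, limma adjusted p = 0.016). Under upper-quartile scaling Smad4 was lower too (log2 difference -0.14, limma adjusted p = 0.066).

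Outside the cell, 15 genes for ligand storage and activation had 9 tested, 1 higher and 2 lower. The lower count was 3 under TPM and quantile normalization, 5 under upper-quartile scaling and 4 without parental replicate 1, and the higher count was 2 without parental replicate 3. Ltbp4 and Ltbp3, which encode latent TGF-beta binding proteins, fell with log2 differences of -0.48 and -0.21 (limma adjusted p = 0.00019 and 0.0094). Ltbp1, of the same family, was not called (log2 difference 0.13, limma adjusted p = 0.15), although all its M8 replicates were above all parental ones. Thbs1, which encodes the TGF-beta activator thrombospondin, rose with a log2 difference of 0.39 (limma adjusted p = 0.0062). Of 16 antagonist genes, 8 were tested, 1 rose and 2 fell. These counts ranged from 0 to 2 and from 2 to 4 when 1 replicate was left out, with 4 lower without parental replicate 1, and 4 were also lower under upper-quartile scaling. Dcn, the gene for the TGF-beta-binding proteoglycan decorin, fell from 18.6 ± 2.13 to 14.2 ± 1.98 FPKM (SD, n = 3 each, limma adjusted p = 0.024). Twsg1, whose product binds BMPs, fell from 22.8 ± 0.841 to 19.4 ± 0.0818 FPKM (SD, n = 3 each, limma adjusted p = 0.0073). Fst, whose product follistatin binds activin, rose from 4.35 ± 1.04 to 5.81 ± 0.302 FPKM (SD, n = 3 each, log2 difference 0.36, limma adjusted p = 0.049). The Fst call was lost without M8 replicate 1, M8 replicate 3, parental replicate 1 or parental replicate 2, with a limma adjusted p of 0.116 to 0.151 in these fits, and it was also lost with no filter (limma adjusted p = 0.137). The ratio of Inhba to Fst overlapped between the lines, at 2.92 to 4.07 in parental cells and 2.73 to 2.98 in M8.

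Of 17 genes known to be raised by BMP in many cell types, 10 were tested, 1 rose and 1 fell. Atoh8, a basic helix-loop-helix gene, rose from 1.08 ± 0.161 to 1.68 ± 0.111 FPKM (SD, n = 3 each, log2 difference 0.37, limma adjusted p = 0.028), and Id2 was the 1 that fell. The number that rose was 2 in 5 of the 6 fits without 1 replicate (all but the one without M8 replicate 2), under eBayes without a trend and under quantile normalization, and 3 with the replicate block. Under upper-quartile scaling 1 rose and 3 fell. Of 30 genes known to be raised by TGF-beta, 21 were tested, 4 rose and 6 fell, Tgfb1 among the latter. Angptl4, a secreted inhibitor of lipoprotein lipase, rose from 2.52 ± 0.341 to 4.90 ± 0.705 FPKM (SD, n = 3 each, log2 difference 0.74, limma adjusted p = 0.0018). Klf10, an early TGF-beta response gene, and Fn1, the gene for fibronectin, had log2 differences of -0.51 and -0.35 (limma adjusted p = 0.0019 and 0.00092). Under upper-quartile scaling 2 of this list rose and 9 fell. The median of the BMP target list was 0.10, and 0.02 under upper-quartile scaling. The median of the TGF-beta target list was 0.06 and turned to -0.06 with a filter at a mean FPKM of 5 and to -0.02 under quantile normalization and under upper-quartile scaling.

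**Figure D4:**
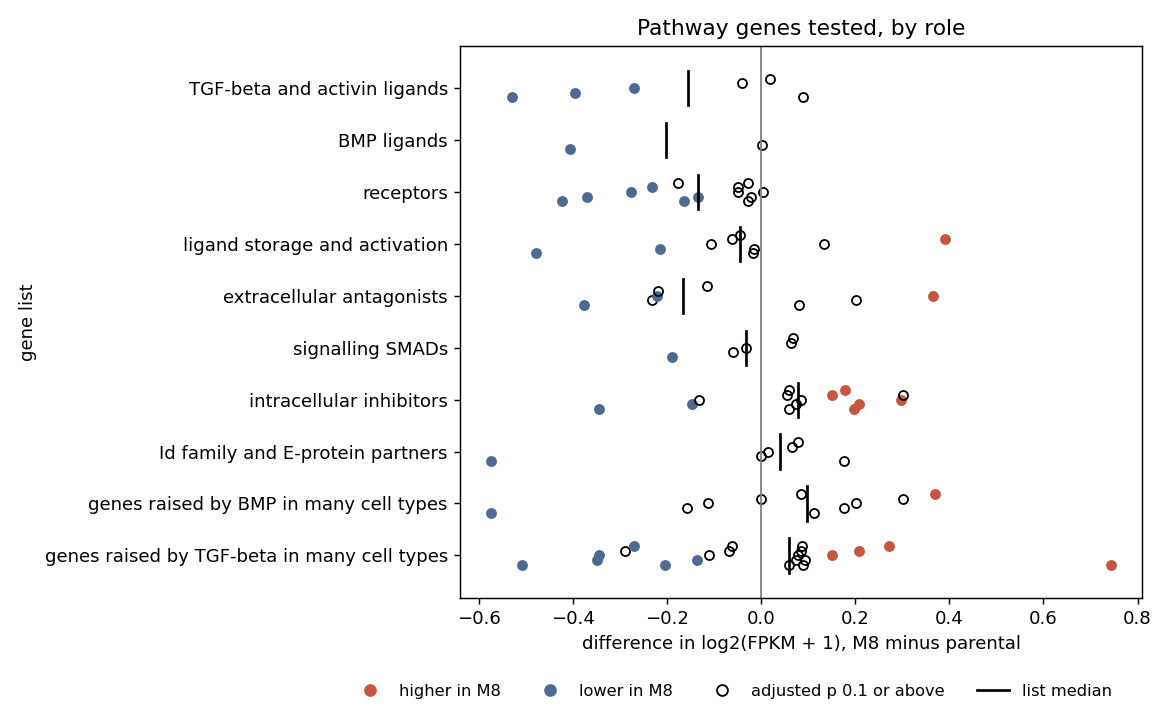
Difference in log2(FPKM + 1), M8 minus parental, of every gene tested in the 10 lists (points, with a gene drawn in every list that holds it), coloured by the limma call, with black lines at the list medians. Receptor genes have 6 of 13 points called lower (3 without M8 replicate 2 or parental replicate 2) and none called higher. The list of intracellular inhibitors, which also holds Rnf111 and Usp15, has 5 called higher and 2 lower, or 3 and 1 without M8 replicate 1 or M8 replicate 2. Over all genes tested, 21.2% were called higher and 16.5% lower.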

How the data were processed

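RNA was sequenced from 3 parental CT26.mMR1 and 3 M8 samples. The authors made stranded mRNA libraries, read single ends, mapped them to mm10 (TopHat), and deposited 1 table of FPKM values per sample. The submitters' processing notes list TopHat2 2.1.1, Bowtie2 2.2.8, SAMtools 0.1.18 and Cuffdiff 2.2.1. The paper's methods name Cufflinks, and which of the 2 programs wrote the values, and so whether they were also scaled across libraries, is not settled. Annotation, filters and strand setting are not given in the sources used here. The study's own comparison used read counts, which were not used here. FPKM values carry no counts. Reads per library were estimated from the steps between low values, assuming 200-base fragments, and cover counting error only.

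limma 3.58.1 in R 4.3.3 (lmFit, eBayes with a trend) was run on log2(FPKM + 1) with no covariates, keeping genes whose mean FPKM reached 1, with Benjamini-Hochberg adjustment. The script was tested on simulated data. Ratios, positions (GENCODE vM21) and figures were computed in Python 3.11.15 with pandas 2.3.3 and matplotlib 3.10.9. The rule for genes named besides the 10 took the 3 largest called differences without overlap and the 2 highest levels of each list, and Id4, Tcf3, Tcf4 and Tcf12. Not all are described. Tgfb3, Ltbp1, Rnf111 and Usp15 were added after their values were seen, and markers listed at 0 are named only as such. The members and lists were chosen with earlier results of these data known. Alternatives were pseudocounts of 0.1 and 0.5, no filter or one at a mean FPKM of 5, an adjusted p below 0.05, eBayes without a trend, a minimum fold change of 1.5, TPM, upper-quartile scaling, quantile normalization, median centring, a replicate block and leaving out each replicate.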

Additional observations from a re-analysis of the deposited data

How the results depend on the processing

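Id2 and Tgfb1 were called lower in M8 in every alternative except a fold change of at least 1.5, which left 0 of the genes lower and, over all genes, 42 higher and 74 lower, a smaller number because that threshold is on the size of the difference. For Id2 it also rests on the pseudocount of 1, since its difference passed 1.5-fold with 0.5 or 0.1. Smad6 made the number of genes called higher 1 under eBayes without a trend, quantile normalization and the replicate block, and leaving out 1 replicate gave 0 to 1 (Smad6 or Id3). Upper-quartile scaling gave 1157 genes higher and 3236 lower over all genes, with a median log2 difference over all genes of -0.07, against 0.01 without it. Leaving out 1 replicate gave 1142 to 1681 lower, the lowest without M8 replicate 1. The replicate numbers do not pair the samples (residual correlations of same-numbered samples 0.10, -0.11 and -0.03), and the replicate block gave 2171 genes higher and 1688 lower, against 2250 and 1745 without it. Sign changes were confined to differences that were not called. Leaving out replicates, Id1 ranged from -0.0537 to 0.0516, Bmp6 from -0.0646 to 0.0671, Acvr1 from -0.0478 to 0.0143, Tcf12 from -0.000773 to 0.0302 and Krt18 from -0.00439 to 0.277. TPM gave Bmp6 -0.0207 and Tcf12 -0.0219. Quantile normalization gave Tcf12 -0.038 and Col1a1 -0.0153. Upper-quartile scaling gave Bmp6 -0.0418, Ppm1a -0.012, Tcf3 -0.00739, Tcf12 -0.0703, Tcf4 -0.0171, Vim -0.0138 and Col1a1 -0.00882. For each of these the cause was not tested. Of 727 values of 47 single genes under the alternatives, 671 kept direction and side of the threshold. Tgfb2, Tgfbi and Smad6 rested on at most 113 estimated reads per library, and Bmp4 was listed at 0. The part of depth in their results was not tested.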
